A study of Homo sapiens with 12 samples.

Results

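Interferon-stimulated genes are transcripts that cells raise when interferons bind their receptors, and 42 of them were followed here over 12 arrays of MCF10A cells. The members are the OAS, IFIT, IFITM, MX and GBP families, the ISG15 conjugation genes, the transcription factors of the pathway and other known effectors. They were chosen by name, with earlier results of these data known. A gene was represented by its brightest probe with a detection p-value under 0.05 on at least 3 arrays. Of the 42 members 41 had a probe under their symbol in the platform table and 37 passed that filter, among 16171 items (11205 named genes and 4966 unnamed probes) kept from 47224 probes. On all 12 arrays 16 members were detected, and 21 were detected on 3 to 11.

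Type I and type III interferons act through the kinases JAK1 and TYK2 and raise transcription from promoters that hold the interferon-stimulated response element, ISRE, where IRF9 binds DNA. Interferon gamma acts through JAK1 and JAK2 and the gamma-activated site, GAS. The induced proteins sense foreign nucleic acid, cut or sequester RNA, tag proteins with ISG15 and block virus entry or release, and epithelial cells keep a low level of many of them without infection.

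MCF10A is a non-tumorigenic human mammary epithelial line. The groups, with 3 arrays each, were Cas/ErbB2, ErbB2, Cas and Ctr MCF10A.B2, which is named control below. ErbB2 is a receptor tyrosine kinase, and Cas is taken here as p130Cas, the adaptor encoded by BCAR1, after the series title, which asks for invasive signatures that depend on both. The labels call the cells of every group modified, and do not say what MCF10A.B2 cells carry, how either protein was raised, or whether each group is 1 clone or 1 culture, so p-values measure the spread between arrays that may be technical.

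Values below are log2 normalized signals. Differences are log2 differences between group means of 3 arrays each, with the standard error (SE) from limma. The p-values of each comparison were adjusted over 16171 items by the Benjamini-Hochberg method. A member rose or fell where adjusted p was under 0.05. The number of arrays limits the precision. Signal of different probes was not compared between genes. In bulk RNA, fewer cells with a transcript and less of it per cell cannot be told apart.

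The control arrays stood apart from the other 9 before normalization. Their raw median signal was 171 to 202, where the other 9 had 477 to 623, and 19076 to 19416 probes were detected on them, where the other 9 had 12864 to 15984. Hybridization numbers are given in the labels of the control arrays alone, so that array run and control group cannot be told apart. Within the Cas/ErbB2 group, replicate 3 detected 15984 probes and replicates 1 and 2 detected 12864 and 13350. Of the 37 tested members 17, 24 and 28 were detected on Cas/ErbB2 replicates 1, 2 and 3, 27 to 30 on ErbB2 arrays, 31 on each Cas array and 37 on each control array. Cas/ErbB2 replicate 3 thus had more probes and fewer members detected than every Cas array. The part of detection in the differences below was not tested, and for that reason members detected on all 12 arrays are given apart, and results are given with and without Cas/ErbB2 replicate 3. BCAR1 did not pass in any of the 7 comparisons, and its difference for Cas against control was -0.31 ± 0.25 (adjusted p = 0.379). ERBB2 fell in Cas/ErbB2 cells, with a log2 difference of -1.04 ± 0.17 (adjusted p = 0.00204) against Cas cells, and its difference for ErbB2 against control was -0.37 ± 0.17 (adjusted p = 0.126). So neither transcript was shown to be higher in the groups named for it. Whether these probes read an introduced sequence is not stated, and the group names below are those of the labels. KRT5, KRT14, KRT18, CDH1 and EPCAM were detected on all 12 arrays, and KRT19 on 3. Of 21 probes for markers of other cell types 6 to 8 were detected on Cas/ErbB2 arrays, 7 on ErbB2 arrays, 7 to 8 on Cas arrays and 8 to 10 on control arrays, and PTPRC, CD3E, IL3RA, VWF, COL3A1 and PDGFRB were detected on 0 arrays. Of the same list CD14, CD68, PECAM1 and ACTA2 were detected on all 12 arrays, COL1A1 on 11, COL1A2 on 3 and CLEC4C on 2. The summed log2 signal of these probes was 164 to 168, 164 to 166, 162 to 165 and 161 to 163 in the same groups, and CD68, detected on all 12 arrays, rose in Cas/ErbB2 cells by 1.34 ± 0.16 (adjusted p = 0.000225) against Cas cells. The part of these markers in the results below was not tested.

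Promoter windows from RefSeq (build GRCh38.p14, 250 bases before to 50 after the transcription start) were found for 33 of the 42 members, while OAS2, OASL, IRF7, USP18, IFIT2, IFITM2, MX2, GBP2 and TRIM22 have no window in the table used. The ISRE core was searched as GAAANNGAAA on both strands and lay in a window of 22 of the 33 members (66.7%), against 4.38% of 27305 genes. The GAS core, searched as TTCNNNGAA, lay in 10 of the 33 (30.3%), against 9.38% of all genes. These motifs were chosen with the members in view, and a match describes letters, not binding. The 6 windows printed here belong to 5 members that were lower in Cas/ErbB2 cells than in Cas cells and to ISG20, which was higher, and the ISRE cores are in capitals, on the gene's strand or as the complement. They are OAS3 (chr12:112938224-112938523, plus strand), ISG15 (chr1:1013247-1013546, plus strand), IFIT1 (chr10:89392373-89392672, plus strand), IFI6 (chr1:27672143-27672442, minus strand), IFI27 (chr14:94110486-94110785, plus strand) and ISG20 (chr15:88638766-88639065, plus strand), each 5′ to 3′ on the gene's strand.
OAS3: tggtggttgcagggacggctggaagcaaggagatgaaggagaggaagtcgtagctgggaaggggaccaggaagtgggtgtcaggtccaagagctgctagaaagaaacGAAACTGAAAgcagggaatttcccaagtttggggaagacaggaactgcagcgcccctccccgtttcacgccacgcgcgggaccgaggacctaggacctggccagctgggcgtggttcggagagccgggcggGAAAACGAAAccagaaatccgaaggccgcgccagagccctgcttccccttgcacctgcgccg
ISG15: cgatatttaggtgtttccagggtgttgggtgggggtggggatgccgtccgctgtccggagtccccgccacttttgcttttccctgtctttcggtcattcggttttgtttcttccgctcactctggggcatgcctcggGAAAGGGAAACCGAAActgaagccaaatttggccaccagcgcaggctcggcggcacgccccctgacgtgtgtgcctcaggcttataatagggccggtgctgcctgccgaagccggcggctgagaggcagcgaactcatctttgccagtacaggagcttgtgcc
IFIT1: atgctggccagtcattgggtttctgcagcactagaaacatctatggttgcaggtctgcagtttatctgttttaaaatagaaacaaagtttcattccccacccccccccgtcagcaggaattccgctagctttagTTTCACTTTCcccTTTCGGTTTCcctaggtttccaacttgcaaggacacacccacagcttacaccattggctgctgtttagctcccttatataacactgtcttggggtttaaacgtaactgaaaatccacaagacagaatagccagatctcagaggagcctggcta
IFI6: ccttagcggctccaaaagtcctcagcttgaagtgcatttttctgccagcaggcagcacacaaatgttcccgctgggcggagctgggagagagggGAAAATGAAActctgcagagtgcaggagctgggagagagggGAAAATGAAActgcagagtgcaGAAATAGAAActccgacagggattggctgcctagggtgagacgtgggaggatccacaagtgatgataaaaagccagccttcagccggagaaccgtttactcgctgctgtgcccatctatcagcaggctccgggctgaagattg
IFI27: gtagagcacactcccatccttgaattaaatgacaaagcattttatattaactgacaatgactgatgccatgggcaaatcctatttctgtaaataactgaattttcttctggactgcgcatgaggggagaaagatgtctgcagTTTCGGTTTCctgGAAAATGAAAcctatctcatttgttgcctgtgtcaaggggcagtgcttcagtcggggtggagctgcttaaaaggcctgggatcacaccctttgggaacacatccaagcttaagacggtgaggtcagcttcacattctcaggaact
ISG20: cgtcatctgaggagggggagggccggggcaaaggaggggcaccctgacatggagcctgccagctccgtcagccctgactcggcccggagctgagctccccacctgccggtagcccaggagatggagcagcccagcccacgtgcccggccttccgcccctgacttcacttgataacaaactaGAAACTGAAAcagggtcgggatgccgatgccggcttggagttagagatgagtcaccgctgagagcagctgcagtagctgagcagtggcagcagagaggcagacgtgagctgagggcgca

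In ISG15 the cores began at -113 and -107, counted in bases from the start, and overlapped. IFIT1 held its 2 cores as the complement, and IFI6 had 3 cores, of which those at -156 and -115 had the same letters. In IFI27 the cores, one on each strand, flanked and in part overlapped a GAS core. ISG20 had 1 core, GAAACTGAAA, whose letters also stood on the gene's strand in OAS3, BST2, SAMD9 and IFITM1. Of the 14 members with a window that fell in Cas/ErbB2 cells against Cas cells 11 held it, as did ISG20, and of the 15 tested members with a window that did not pass 8 held it.

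**Figure D1:**
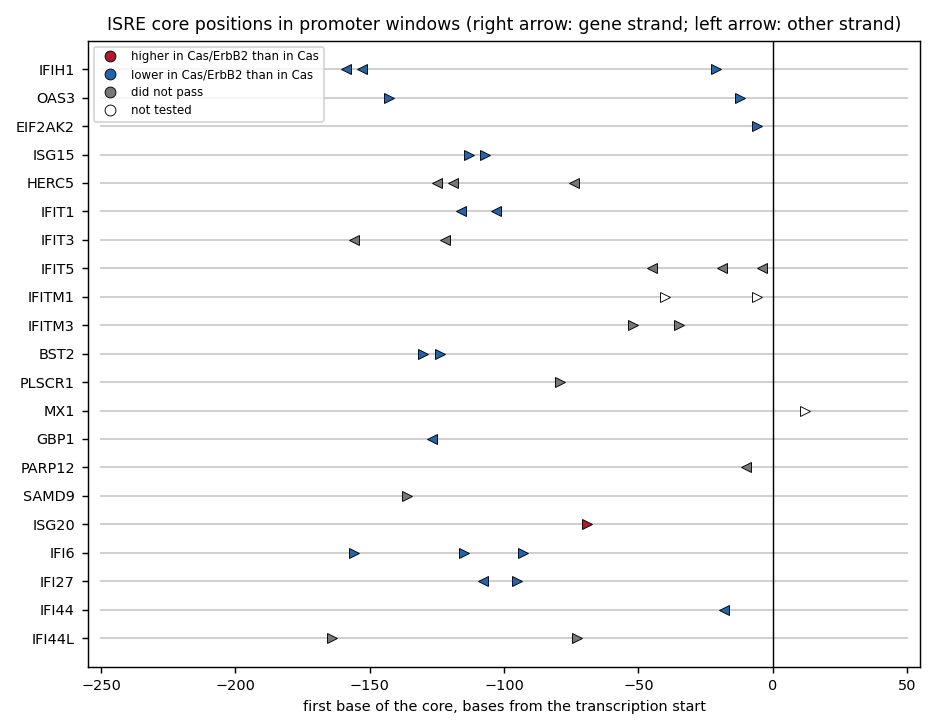
Position of each ISRE core in the promoter window of 21 members, in bases from the transcription start, with the arrow pointing right for the gene's strand and left for the other. Each gene's window listed first in the table is drawn, which leaves out PARP9, whose core lies in its second window. Cores began between -164 and 12, in tested members that fell, rose or did not pass in Cas/ErbB2 cells against Cas cells and in MX1 and IFITM1, which were not tested.

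Across the 4 groups the members were mostly lowest in Cas/ErbB2 cells. The Cas/ErbB2 group had the lowest mean for 10 of the 16 members detected on all 12 arrays, where 32.2% of the 8406 items so detected had it lowest. Over all 37 tested members it was 28, where 31% of the 16171 items had it lowest. A member that passed the filter only through the groups where it was bright had to be lower elsewhere, so counts over the 37 are given as a description. The control group had the lowest mean for 5 of the 16 (38.4% of items so detected) and 5 of the 37 (38.5% of items). Highest means lay in the Cas/ErbB2 group for 4 of 37, ISG20 among them (27.6% of items), in the Cas group for 14 (19.4%) and in the control group for 18 (37.9%). Among the 16 the highest mean lay in the Cas group for 8 (19.5% of items so detected) and in the control group for 4 (34.1%). The median member signal was 7.91 to 8.54 on Cas/ErbB2 arrays, 8.72 to 8.88 on ErbB2 arrays, 8.85 to 9.23 on Cas arrays and 9.05 to 9.18 on control arrays. Over the 16 members detected on all 12 arrays the ranges lay closer, at 10.12 to 10.32, 10.40 to 10.62, 10.34 to 10.52 and 10.26 to 10.54 in the same groups.

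**Figure D2:**
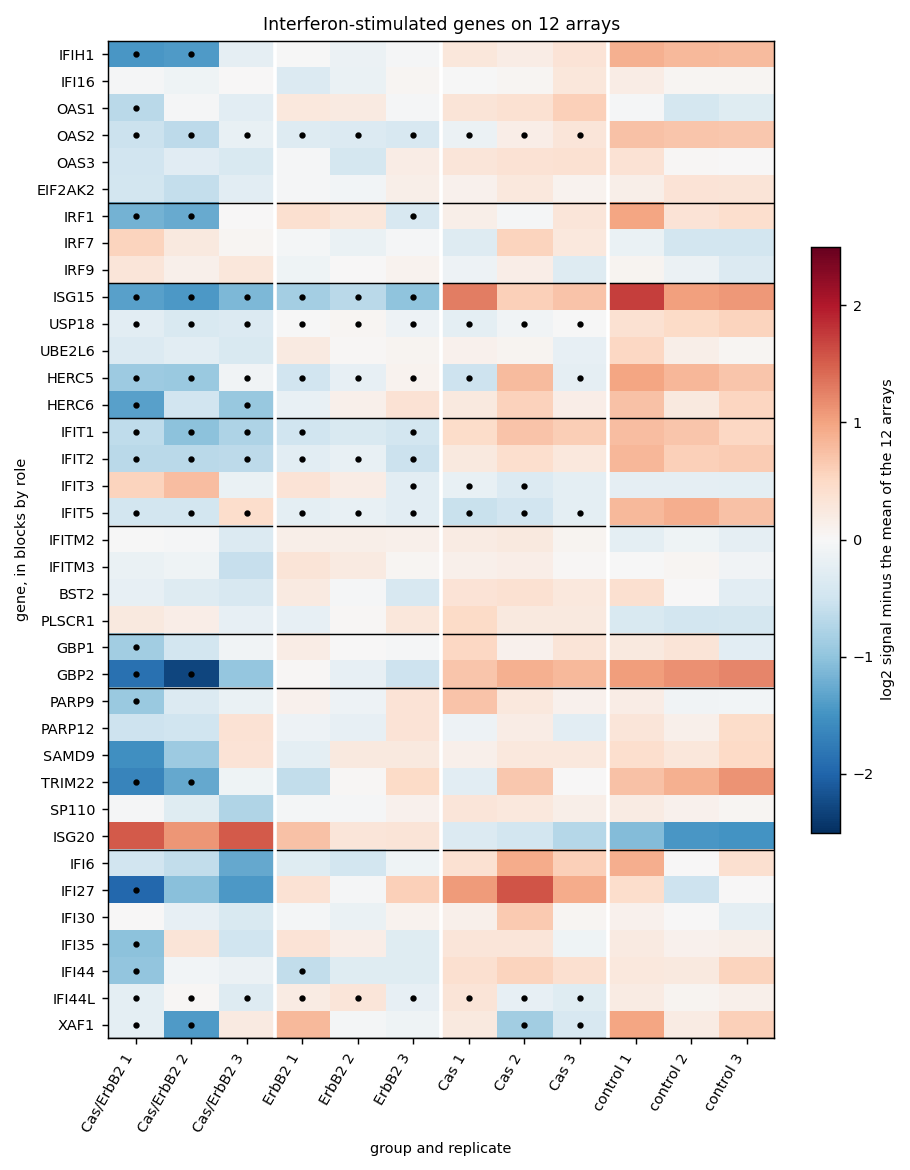
Log2 signal of the 37 tested members minus the mean of the 12 arrays, one column per array, ordered Cas/ErbB2, ErbB2, Cas and control, with a dot where the probe was not detected. Most rows are lowest in the Cas/ErbB2 columns, which hold more of the dots than any other group, and the ISG20 row runs the other way.

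Cas/ErbB2 and Cas cells differ by ErbB2 in their labels, though the ERBB2 signal was lower in Cas/ErbB2 than in Cas cells. The control arrays enter this comparison through the normalization, the detection filter and the spread in the fit. Normalized and filtered on their own, an alternative added after seeing the data, the other 9 arrays kept 32 members, of which 16 were called lower and 1 higher. Among the 16 members detected on all 12 arrays 5 fell (IFI6, OAS3, BST2, SP110 and EIF2AK2), 1 rose (ISG20) and 10 did not pass, beside 7.03% of the 8406 items so detected that fell and 7.16% that rose. The median difference of the 16 was -0.36, and that of the 8406 items -0.02. Of the 21 members detected on 3 to 11 arrays 12 were called lower (among them OAS2, detected on 0 arrays of either group), 0 higher and 9 did not pass. Of the 16171 items, those detected on all 12 arrays included, 5.7% fell and 4.95% rose. A member kept through its bright groups alone was favoured to be lower elsewhere, so the counts of the 21 are a description. On single arrays, 22 of 37 members were lower on all 3 Cas/ErbB2 arrays than on any Cas array, as were 14% of items, and 9 of the 16 detected on all 12, as were 18.7% of items so detected. Without Cas/ErbB2 replicate 3 the calls numbered 20 in place of 18, and across leaving out each of the 12 arrays they ran from 12 to 20. Under median scaling over all probes, in place of quantile normalization, 7 calls were left, of which 6 were lower. The calls of ISG15, IFIT1, GBP2, IFI6, IFI27 and ISG20 held under every alternative in which they were tested.

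**Figure D3:**
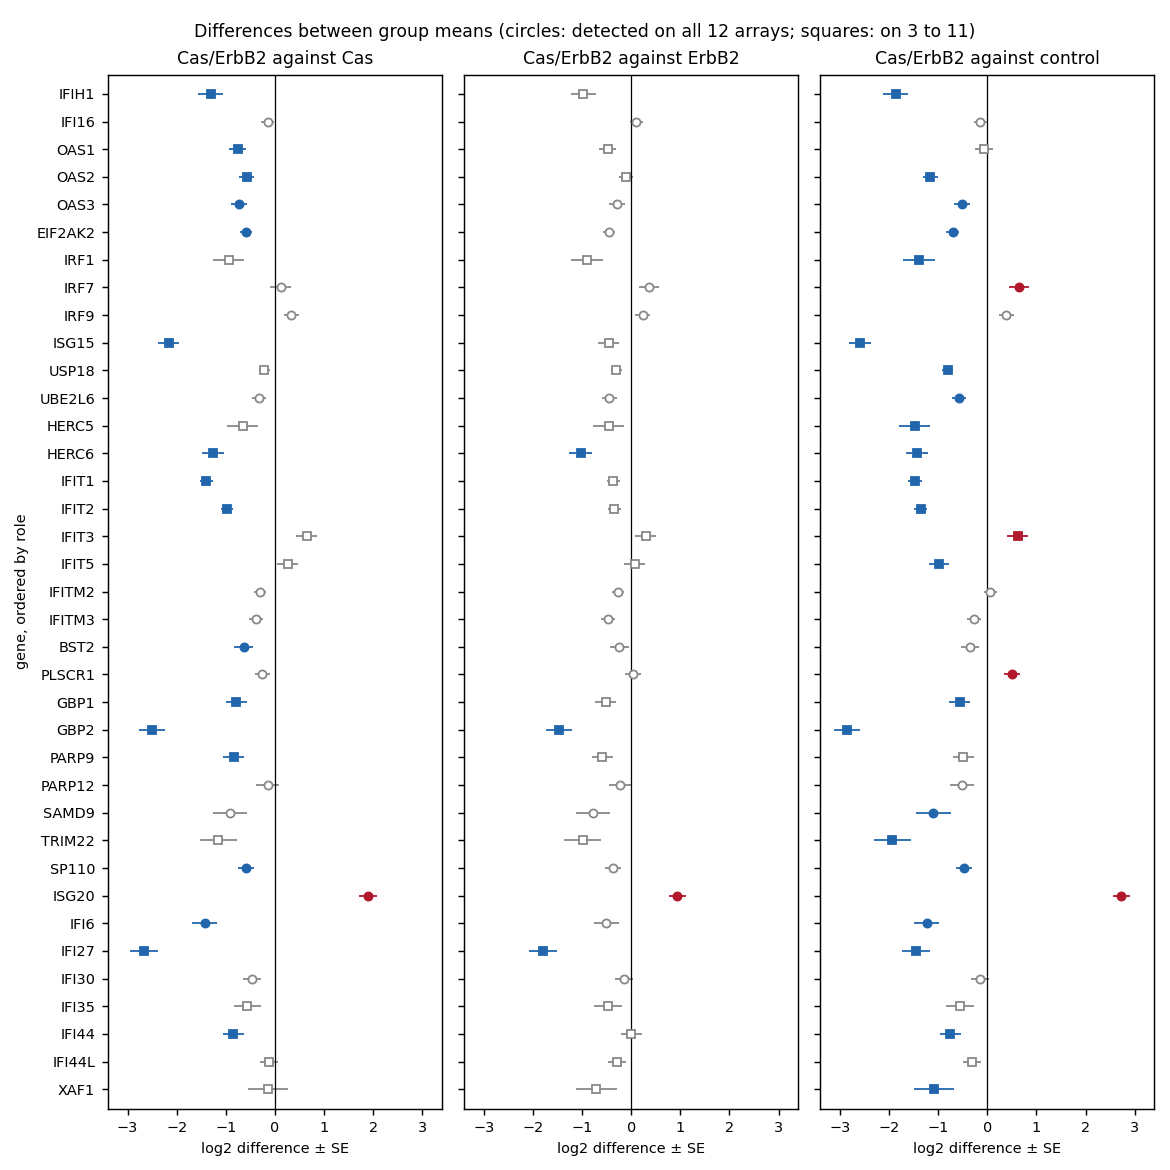
Log2 difference ± SE (limma) of each tested member for Cas/ErbB2 against Cas, ErbB2 and control cells, n = 3 arrays per group, with filled marks for adjusted p under 0.05 (blue lower, red higher) and open marks for the rest. The filled marks of the Cas panel lie left of 0 for 17 members, and ISG20 is filled on the right in every panel.

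**Figure D4:**
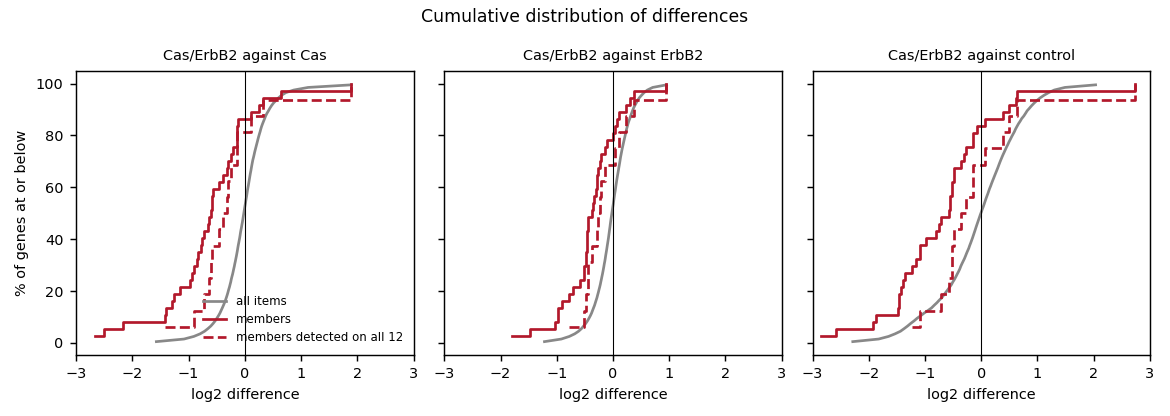
Share of genes at or below each log2 difference for Cas/ErbB2 against Cas, ErbB2 and control, for all 16171 items (grey), the 37 members (solid red) and the 16 members detected on all 12 arrays (dashed red). The member curves lie left of the grey curve for most of their height in each panel, and the dashed curve lies closer to it than the solid one.

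Among sensors and RNA-activated enzymes, 5 of 6 tested members were called lower in Cas/ErbB2 than in Cas cells, and 0 higher, beside 5.7% and 4.95% of all items. One of the 5, OAS2, was detected on 0 arrays of either group. OAS3, a synthetase of the oligoadenylates that switch on RNase L, had a log2 signal of 9.18, 9.38 and 9.28 in Cas/ErbB2 cells, 9.62, 9.23 and 9.84 in ErbB2 cells, 9.97, 10.02 and 10.04 in Cas cells, against 10.02, 9.70 and 9.67 in control cells. All 3 Cas/ErbB2 arrays and all 3 ErbB2 arrays were below the Cas arrays, and Cas/ErbB2 and ErbB2 arrays overlapped. Its difference was -0.73 ± 0.16 (adjusted p = 0.0115), 1.66-fold lower, and -0.51 ± 0.16 (adjusted p = 0.0219) against control cells, a call lost without Cas/ErbB2 replicate 1 or control replicate 1 (largest adjusted p = 0.098). EIF2AK2, the kinase PKR that stops translation when it binds double-stranded RNA, had 10.46, 10.32 and 10.64 in Cas/ErbB2 cells, 10.88, 10.84 and 11.06 in ErbB2 cells, 11.02, 11.17 and 11.003 in Cas cells, against 11.06, 11.25 and 11.24 in control cells. All 3 Cas/ErbB2 arrays were below the other 9. It fell, with a log2 difference of -0.59 ± 0.13 (adjusted p = 0.0111) against Cas cells, a call lost without Cas replicate 2 (adjusted p = 0.0504), and of -0.71 ± 0.13 (adjusted p = 0.000962) against control cells.

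IFIH1, the cytosolic sensor MDA5 of long double-stranded RNA, was detected on 1 Cas/ErbB2 array and on all arrays of the other groups. Its signal was 6.95, 6.997 and 8.18 in Cas/ErbB2 cells, 8.39, 8.27 and 8.38 in ErbB2 cells, 8.69, 8.60 and 8.75 in Cas cells, against 9.31, 9.22 and 9.20 in control cells. The detected Cas/ErbB2 array, replicate 3, lay just below the lowest ErbB2 array, and replicates 1 and 2 lay well below it. The difference was -1.30 ± 0.26 (adjusted p = 0.00545) against Cas cells and -0.97 ± 0.26 (adjusted p = 0.0677) against ErbB2 cells, which did not pass. Against control cells it fell in Cas/ErbB2 cells, with a log2 difference of -1.86 ± 0.26 (adjusted p = 0.000112) and in ErbB2 cells of -0.89 ± 0.26 (adjusted p = 0.0197), the second lost without ErbB2 replicate 2 or control replicate 1 or 2 (largest adjusted p = 0.065). OAS1 fell, with a log2 difference of -0.76 ± 0.18 (adjusted p = 0.0158) against Cas cells, lost without Cas/ErbB2 replicate 1 or Cas replicate 3 (largest adjusted p = 0.0659). Its other kept probes gave -0.85 ± 0.19 (adjusted p = 0.012) and -0.10 ± 0.20 (adjusted p = 0.834). OAS2 was called lower in Cas/ErbB2 than in Cas cells (adjusted p = 0.0283, at most 0.109 on leaving out 1 array), but its probe was not well above background on any array of either group, so no fold is given. IFI16, a DNA sensor detected on all 12 arrays, did not pass in any comparison, with group means of 12.24 in Cas/ErbB2, 12.13 in ErbB2, 12.39 in Cas and 12.38 in control cells. OASL was detected on 1 array and was not tested.

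Of the transcription factors 0 of 3 tested passed between Cas/ErbB2 and Cas cells, where 5.7% of all items fell and 4.95% rose. IRF7, which drives interferon genes, had 8.97, 8.68 and 8.47 in Cas/ErbB2 cells, 8.37, 8.26 and 8.40 in ErbB2 cells, 8.11, 8.99 and 8.69 in Cas cells, against 8.26, 7.97 and 7.96 in control cells. Every Cas/ErbB2 array was above every ErbB2 and control array, and the Cas arrays overlapped each of the other groups. IRF7 rose by 0.64 ± 0.21 (adjusted p = 0.0241) against control cells, a sign that turned under median scaling over all probes and with the mean of the kept probes. That call was lost without Cas/ErbB2 replicate 1 or 2 or control replicate 2 or 3 (largest adjusted p = 0.089). A second IRF7 probe, detected on 3 arrays, gave -1.15 ± 0.11 against control cells. For a probe that passes the filter only where it is bright, lower signal elsewhere is favoured by the filter. IRF9, a DNA-binding factor of the interferon pathway, did not pass in any comparison and differed by 0.33 ± 0.15 (adjusted p = 0.219) between Cas/ErbB2 and Cas cells. IRF1, an activator induced by interferon gamma, was detected on 1 Cas/ErbB2 array, 2 ErbB2 arrays and all arrays of the other groups. It differed by -0.95 ± 0.32 (adjusted p = 0.0882) against Cas cells and fell, with a log2 difference of -1.39 ± 0.32 (adjusted p = 0.00442) against control cells. STAT2, the partner of IRF9, has no probe in the table used here.

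The ISG15 pathway had 2 of 5 members lower in Cas/ErbB2 than in Cas cells, and 0 higher, beside 5.7% and 4.95% of all items. Both, ISG15 and HERC6, were detected on part of the arrays. ISG15, the ubiquitin-like modifier, had a signal of 6.73, 6.65 and 6.96 in Cas/ErbB2 cells, 7.24, 7.40 and 7.07 in ErbB2 cells, 9.36, 8.67 and 8.80 in Cas cells, against 9.82, 9.11 and 9.18 in control cells. It was detected on all Cas and control arrays and on 0 of the 6 Cas/ErbB2 and ErbB2 arrays, so the arrays fell into a bright and a dim set with no overlap. ISG15 was at least 2.05-fold lower in Cas/ErbB2 than in Cas cells (adjusted p = 4.33e-05), with means of 6.78 ± 0.16 and 8.94 ± 0.36 (SD). ErbB2 cells were at least 2.16-fold lower than Cas cells (adjusted p = 0.00139). These bounds set the bright mean against the lowest signal well above background on each dim array. ISG15 passed the filter through the Cas and control arrays alone, so lower signal elsewhere was favoured by the filter. HERC6, a HECT protein that in mouse is the ISG15 ligase, had 7.24, 8.11 and 7.65 in Cas/ErbB2 cells, 8.41, 8.72 and 8.95 in ErbB2 cells, 8.83, 9.18 and 8.75 in Cas cells, against 9.33, 8.84 and 9.12 in control cells. Only Cas/ErbB2 replicate 2 was detected in its group, and all 3 Cas/ErbB2 arrays were below the other 9. It fell, with a log2 difference of -1.26 ± 0.23 (adjusted p = 0.00335) against Cas cells and of -1.03 ± 0.23 (adjusted p = 0.034) against ErbB2 cells, with 2 of the 3 Cas/ErbB2 signals not well above background.

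HERC5, the human ISG15 ligase, was detected on 0 Cas/ErbB2, 0 ErbB2, 1 Cas and 3 control arrays. Its signal was 6.51, 6.49 and 7.33 in Cas/ErbB2 cells, 6.95, 7.23 and 7.52 in ErbB2 cells, 6.91, 8.21 and 7.19 in Cas cells, against 8.40, 8.25 and 8.11 in control cells. Cas replicate 2 was as bright as the control arrays and the other Cas arrays were not, and HERC5 did not pass against Cas cells. HERC5 passed the filter through the control arrays and Cas replicate 2 alone, so lower signal elsewhere was favoured by the filter. Against control cells HERC5 was at least 1.27-fold lower in Cas/ErbB2 cells (adjusted p = 0.00253) and at least 1.33-fold lower in ErbB2 cells (adjusted p = 0.0276). The second call was lost without any single control array or without ErbB2 replicate 1 or 2 (largest adjusted p = 0.104). UBE2L6, the conjugating enzyme of ISG15, was detected on all 12 arrays, with 11.21, 11.29 and 11.17 in Cas/ErbB2 cells, 11.78, 11.59 and 11.62 in ErbB2 cells, 11.66, 11.63 and 11.36 in Cas cells, against 12.08, 11.70 and 11.60 in control cells. Every Cas/ErbB2 array was below the other 9. It fell, with a log2 difference of -0.57 ± 0.15 (adjusted p = 0.00776) against control cells and did not pass against Cas cells (-0.33 ± 0.15, adjusted p = 0.201). A second UBE2L6 probe, also detected on all 12 arrays, did not follow it, with 0.43 ± 0.17 (adjusted p = 0.0547) against control cells. USP18, the protease that removes ISG15, was detected on the 3 control arrays alone, so lower signal elsewhere was favoured by the filter. It was called lower in each other group than in control cells, a direction that turned under 2 forms of median scaling.

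Of the IFIT RNA-binding proteins 2 of 4 fell in Cas/ErbB2 cells against Cas cells, and 0 rose, beside 5.7% and 4.95% of all items. IFIT1, which binds RNA caps that lack host methylation, had 7.61, 7.22 and 7.46 in Cas/ErbB2 cells, 7.74, 7.86 and 7.78 in ErbB2 cells, 8.69, 8.94 and 8.85 in Cas cells, against 9.01, 8.93 and 8.75 in control cells. The 6 Cas and control arrays lay above the 6 Cas/ErbB2 and ErbB2 arrays, with no overlap. IFIT1 was detected on 0 Cas/ErbB2 and 1 ErbB2 array and was at least 1.89-fold lower in Cas/ErbB2 than in Cas cells (adjusted p = 3.43e-05). In ErbB2 cells it fell, with a log2 difference of -1.03 ± 0.14 (adjusted p = 0.00181) against Cas cells, a call lost under each form of median scaling (largest adjusted p = 0.219). IFIT2, its partner, was detected on the same 2 bright groups alone and was at least 1.21-fold lower in Cas/ErbB2 than in Cas cells (adjusted p = 0.000355). Both passed the filter through the Cas and control arrays, IFIT1 with 1 ErbB2 array besides, so lower signal elsewhere was favoured by the filter. IFIT3, the subunit that stabilizes IFIT1, went the other way on its brightest probe, 0.64 ± 0.22 (adjusted p = 0.0876) against Cas cells and 0.62 ± 0.22 (adjusted p = 0.0365) against control cells. The second of these turned in sign under median scaling over all probes and with the mean of the kept probes, and was lost without Cas/ErbB2 replicate 1 or 2 or any single control array (largest adjusted p = 0.145). A second IFIT3 probe gave -1.76 ± 0.14 against control cells. It was detected on the 3 control arrays alone, so lower signal elsewhere was favoured by the filter. No direction is given for the gene. IFIT5, which binds RNA with a free triphosphate end, was likewise detected on the 3 control arrays alone. It was at least 1.02-fold lower in ErbB2 cells and at least 1.01-fold lower in Cas cells, a direction the filter favoured.

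The 4 tested membrane restriction factors were detected on all 12 arrays. Against Cas cells 1 of 4 tested fell in Cas/ErbB2 cells and 0 rose, beside 7.03% and 7.16% of items so detected. BST2, the tether that holds budding virions to the cell, had 10.42, 10.31 and 10.23 in Cas/ErbB2 cells, 10.85, 10.60 and 10.24 in ErbB2 cells, 10.98, 11.01 and 10.89 in Cas cells, against 11.03, 10.64 and 10.36 in control cells. The Cas/ErbB2 and Cas arrays did not overlap, while the ErbB2 and control arrays overlapped the Cas/ErbB2 range. Its difference was -0.64 ± 0.19 (adjusted p = 0.0468), and the call was lost without any single Cas/ErbB2 or Cas array, ErbB2 replicate 2 or control replicate 2 (largest adjusted p = 0.13). PLSCR1, a phospholipid scramblase, had 8.62, 8.54 and 8.18 in Cas/ErbB2 cells, 8.16, 8.40 and 8.67 in ErbB2 cells, 8.85, 8.62 and 8.63 in Cas cells, against 7.99, 7.92 and 7.93 in control cells. All 9 arrays of the other groups were above the 3 control arrays, and it rose against control by 0.50 ± 0.16 (adjusted p = 0.023) in Cas/ErbB2 cells, 0.46 ± 0.16 (adjusted p = 0.0433) in ErbB2 cells and 0.75 ± 0.16 (adjusted p = 0.00412) in Cas cells, signs that turned under median scaling over all probes. The call in Cas/ErbB2 cells was lost without Cas/ErbB2 replicate 1 or 2 or any single control array (largest adjusted p = 0.0798), and that in ErbB2 cells without ErbB2 or Cas replicate 2 or 3 or any single control array (largest adjusted p = 0.151).

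IFITM2, which stops virus fusion in endosomes, had 14.02, 14.01 and 13.70 in Cas/ErbB2 cells, 14.17, 14.18 and 14.16 in ErbB2 cells, 14.24, 14.29 and 14.11 in Cas cells, against 13.79, 13.93 and 13.81 in control cells. Cas/ErbB2 replicate 3 was the lowest of the 12, and the Cas arrays were above the control arrays. It rose by 0.37 ± 0.12 (adjusted p = 0.0421) in Cas cells against control cells, a call lost without any single Cas, ErbB2 or control array (largest adjusted p = 0.132), with a sign that turned under median scaling over all probes. IFITM3, its close relative, did not pass in any comparison, and differed by -0.39 ± 0.14 (adjusted p = 0.113) between Cas/ErbB2 and Cas cells. Probes of near-identical genes can share signal, and which transcripts the IFITM probes bind was not tested. IFITM1 was detected on 0 arrays.

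Both tested interferon-induced GTPases fell in Cas/ErbB2 cells against Cas cells, where 5.7% of all items fell. GBP2, a guanylate-binding protein that acts on membranes around pathogens, had 7.71, 7.30 and 8.61 in Cas/ErbB2 cells, 9.61, 9.37 and 9.06 in ErbB2 cells, 10.28, 10.47 and 10.40 in Cas cells, against 10.63, 10.73 and 10.81 in control cells. The 4 groups did not overlap, in the order Cas/ErbB2, ErbB2, Cas and control from low to high. Only Cas/ErbB2 replicate 3 was detected in its group, and it was the brightest of the 3. The difference was -2.51 ± 0.26 (adjusted p = 6.57e-05) against Cas cells and -1.48 ± 0.26 (adjusted p = 0.0119) against ErbB2 cells, and no fold is given because 2 of the 3 Cas/ErbB2 signals were not well above background. GBP2 in ErbB2 cells did not pass against Cas cells (-1.03 ± 0.26, adjusted p = 0.0873) and fell, with a log2 difference of -1.37 ± 0.26 (adjusted p = 0.00212) against control cells. GBP1, of the same family, fell, with a log2 difference of -0.79 ± 0.21 (adjusted p = 0.0322) against Cas cells, a call lost without Cas/ErbB2 replicate 1 or 2 or Cas replicate 1 or 3 (largest adjusted p = 0.125). A second GBP1 probe gave -0.998 ± 0.23 (adjusted p = 0.0151). MX1 and MX2, dynamin-like GTPases that trap viral particles, were detected on 2 arrays and 1 array and were not tested.

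ISG20, an exonuclease that degrades single-stranded RNA, was the only member called higher in Cas/ErbB2 than in Cas cells. Its signal was 11.78, 11.36 and 11.79 in Cas/ErbB2 cells, 10.98, 10.55 and 10.57 in ErbB2 cells, 9.91, 9.80 and 9.54 in Cas cells, against 9.18, 8.79 and 8.76 in control cells. The 4 groups did not overlap and stepped up in the order control, Cas, ErbB2 and Cas/ErbB2. ISG20 rose in Cas/ErbB2 cells by 1.89 ± 0.18 (adjusted p = 2.89e-05) against Cas cells, 3.72-fold, and by 0.94 ± 0.18 (adjusted p = 0.0178) against ErbB2 cells. In ErbB2 cells it rose by 0.95 ± 0.18 (adjusted p = 0.0198) against Cas cells. Against control cells it was 6.63-fold higher in Cas/ErbB2 cells (2.73 ± 0.18, adjusted p = 7.12e-07), 3.45-fold higher in ErbB2 cells (1.79 ± 0.18, adjusted p = 1.66e-05) and 1.78-fold higher in Cas cells (0.84 ± 0.18, adjusted p = 0.00487), the last turning under median scaling over all probes. Under that scaling the call in ErbB2 cells was lost (0.09, adjusted p = 0.789), as were those against ErbB2 cells (0.74, adjusted p = 0.582) and between ErbB2 and Cas cells (1.15, adjusted p = 0.219). Against ErbB2 cells the call was lost without Cas/ErbB2 replicate 1 or ErbB2 replicate 2 or 3 (largest adjusted p = 0.0889), and between ErbB2 and Cas cells without ErbB2 replicate 1 or 3 or Cas replicate 2 or 3 (largest adjusted p = 0.0954).

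**Figure D5:**
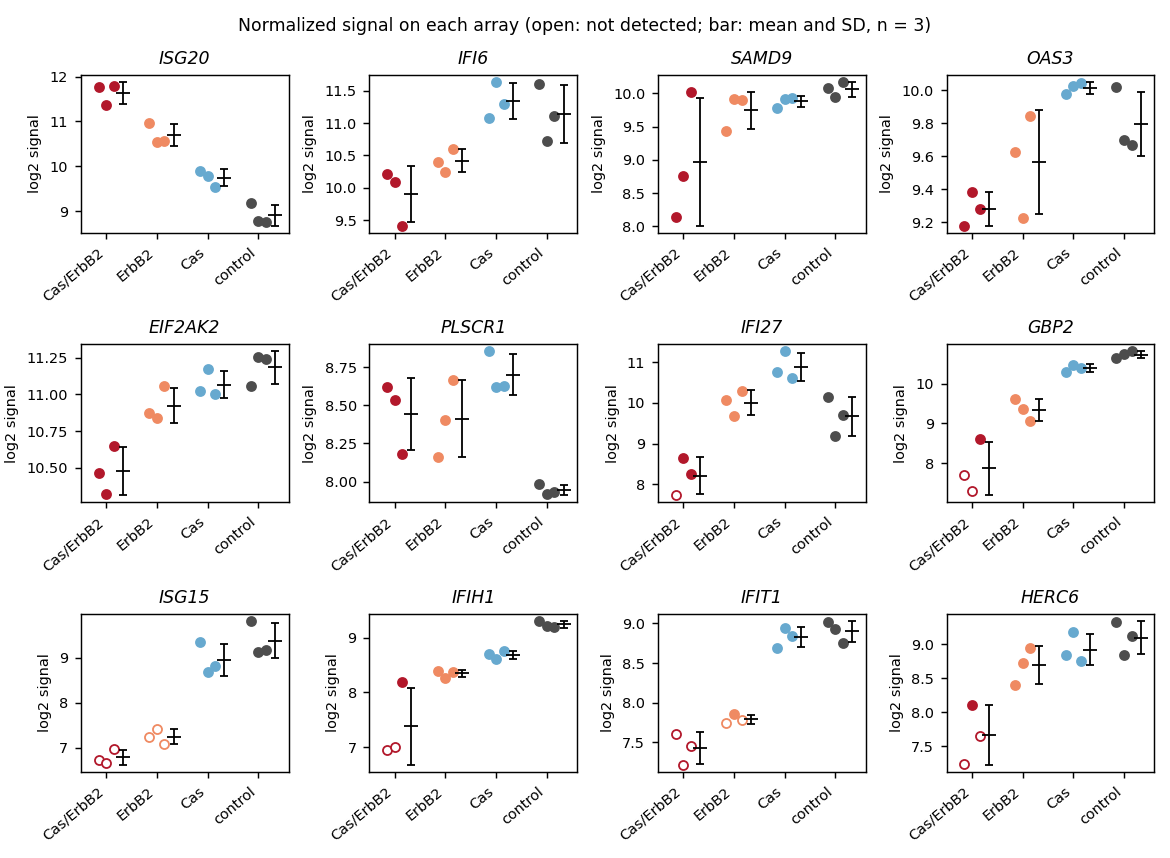
Log2 signal of 12 members on each array, ordered Cas/ErbB2, ErbB2, Cas and control, with open circles where the probe was not detected and bars for the group mean and SD (n = 3). ISG20 steps down from Cas/ErbB2 to control cells, GBP2 steps up, ISG15 and IFIT1 fall into a dim pair and a bright pair of groups, and IFI27 peaks in Cas cells.

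Of the other nuclear and PARP effectors SP110 and PARP9 fell in Cas/ErbB2 cells against Cas cells. SP110, a nuclear body protein, had 9.61, 9.34 and 8.90 in Cas/ErbB2 cells, 9.59, 9.61 and 9.74 in ErbB2 cells, 9.94, 9.91 and 9.79 in Cas cells, against 9.85, 9.75 and 9.69 in control cells. Cas/ErbB2 replicate 1 overlapped the ErbB2 arrays and no Cas array. Its difference was -0.60 ± 0.16 (adjusted p = 0.0345), lost without Cas/ErbB2 replicate 2 or 3, ErbB2 replicate 2 or any single Cas array (largest adjusted p = 0.111). Of 3 further SP110 probes, one gave -1.56 ± 0.30 (adjusted p = 0.00457), another -1.13 ± 0.19 (adjusted p = 0.00177), and the last -0.03 ± 0.16 (adjusted p = 0.952). PARP9, the partner of the ubiquitin ligase DTX3L, fell, with a log2 difference of -0.84 ± 0.21 (adjusted p = 0.0254), lost without Cas/ErbB2 replicate 1 or Cas replicate 1 or 2 (largest adjusted p = 0.109) and with the mean of the kept probes (-0.65, adjusted p = 0.0748). A second PARP9 probe, detected on 11 arrays, gave -0.47 ± 0.23 (adjusted p = 0.249). PARP12, a mono-ADP-ribosyltransferase, did not pass in any comparison.

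SAMD9, a restriction factor of poxviruses, had 8.14, 8.76 and 10.02 in Cas/ErbB2 cells, 9.43, 9.91 and 9.90 in ErbB2 cells, 9.79, 9.92 and 9.93 in Cas cells, against 10.08, 9.95 and 10.17 in control cells. Cas/ErbB2 replicate 3 lay among the other groups, and replicates 1 and 2 lay below them. Its spread in Cas/ErbB2 cells was the widest of the 37 members, with a mean of 8.97 ± 0.96 (SD), and it did not pass against Cas cells (-0.91 ± 0.35, adjusted p = 0.129). Against control cells it fell, with a log2 difference of -1.10 ± 0.35 (adjusted p = 0.0227), lost without Cas/ErbB2 replicate 1 or 2 or control replicate 1 or 3 (largest adjusted p = 0.09). TRIM22, an antiviral RING protein, was detected on 1 Cas/ErbB2 array and all others, with 6.87, 7.24 and 8.42 in Cas/ErbB2 cells, 7.92, 8.56 and 9.01 in ErbB2 cells, 8.26, 9.20 and 8.53 in Cas cells, against 9.26, 9.41 and 9.65 in control cells. Again replicate 3 was the bright Cas/ErbB2 array. TRIM22 did not pass against Cas cells (-1.15 ± 0.38, adjusted p = 0.0787) and fell, with a log2 difference of -1.93 ± 0.38 (adjusted p = 0.00157) against control cells.

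Among the other interferon-induced proteins 3 of 7 fell in Cas/ErbB2 cells against Cas cells, where 5.7% of all items fell. IFI27, a mitochondrial protein, was detected on 2 Cas/ErbB2 arrays and all others, with 7.74, 8.65 and 8.26 in Cas/ErbB2 cells, 10.06, 9.67 and 10.29 in ErbB2 cells, 10.76, 11.27 and 10.61 in Cas cells, against 10.14, 9.18 and 9.70 in control cells. The Cas/ErbB2 arrays were below the other 9, and the Cas arrays above the other 9. It fell, with a log2 difference of -2.67 ± 0.29 (adjusted p = 7.83e-05) against Cas cells, 6.35-fold, of -1.79 ± 0.29 (adjusted p = 0.00612) against ErbB2 cells, 3.47-fold, and of -1.46 ± 0.29 (adjusted p = 0.00158) against control cells. In Cas cells it rose by 1.21 ± 0.29 (adjusted p = 0.0081) against control cells, which turned under median scaling over all probes. IFI6, a small membrane protein that restrains apoptosis, had 10.22, 10.10 and 9.42 in Cas/ErbB2 cells, 10.40, 10.25 and 10.60 in ErbB2 cells, 11.08, 11.64 and 11.30 in Cas cells, against 11.61, 10.72 and 11.11 in control cells. The Cas/ErbB2 and Cas arrays did not overlap, and Cas/ErbB2 replicate 3 was the lowest. It fell, with a log2 difference of -1.43 ± 0.25 (adjusted p = 0.00299) against Cas cells, 2.69-fold, and a second IFI6 probe gave -1.75 ± 0.26 (adjusted p = 0.000849). Against control cells it fell, with a log2 difference of -1.23 ± 0.25 (adjusted p = 0.0021) in Cas/ErbB2 cells and of -0.73 ± 0.25 (adjusted p = 0.0474) in ErbB2 cells, the second lost without any single ErbB2 or Cas array, Cas/ErbB2 replicate 2 or control replicate 1 or 3 (largest adjusted p = 0.197).

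IFI44 fell, with a log2 difference of -0.85 ± 0.22 (adjusted p = 0.0238) against Cas cells, lost without any single Cas array (largest adjusted p = 0.0863). XAF1, which binds the apoptosis inhibitor XIAP, did not pass against Cas cells (-0.14 ± 0.41, adjusted p = 0.888), and a second XAF1 probe detected on 4 arrays rose there (0.62 ± 0.16, adjusted p = 0.0262). IFI30, a lysosomal thiol reductase, IFI35 and the brightest probe of IFI44L did not pass in any comparison. A second IFI44L probe was detected on the 3 control arrays alone, so lower signal elsewhere was favoured by the filter. Against control cells it gave -1.69 ± 0.11 in Cas/ErbB2 cells, -1.62 ± 0.11 in ErbB2 cells and -1.51 ± 0.11 in Cas cells. IFI30 differed by -0.47 ± 0.18 (adjusted p = 0.127) and IFI35 by -0.56 ± 0.28 (adjusted p = 0.256) between Cas/ErbB2 and Cas cells.

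The comparison of Cas/ErbB2 with ErbB2 cells sets groups side by side that differ by Cas in their labels. It shares the Cas/ErbB2 arrays with the comparison before. Of the 16 members detected on all 12 arrays 1 rose (ISG20), 0 fell and 15 did not pass, beside 1.64% of items so detected that rose and 1.57% that fell. Of the 21 others 3 fell (IFI27, GBP2 and HERC6) and 18 did not pass. Of all items, those detected on all 12 arrays included, 1.21% rose and 1.55% fell. The median difference over the 37 was -0.37 and over all items -0.02, and 16 of the 37 were lower on every Cas/ErbB2 array than on any ErbB2 array, as were 9.85% of items. Without Cas/ErbB2 replicate 3 the calls numbered 10, of which 9 were lower, and without Cas/ErbB2 replicate 1 or ErbB2 replicate 2 there was 1. In limma on these 6 arrays alone there were 0 calls, with 14 of 37 at an unadjusted p under 0.05. The HERC6 call was lost without Cas/ErbB2 replicate 1, any single ErbB2 array or control replicate 3 (largest adjusted p = 0.114), and that of GBP2 without Cas/ErbB2 replicate 1 or ErbB2 replicate 1 or 2 (largest adjusted p = 0.0632).

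Between ErbB2 and Cas cells 1 of the 16 members detected on all 12 arrays rose (ISG20) and 0 fell, beside 1.27% of items so detected that rose and 0.452% that fell. Of the 21 others 3 were called lower, ISG15, IFIT1 and IFIT2. Of all items, those detected on all 12 arrays included, 0.464% fell and 1.09% rose. ISG15 and IFIT2 passed the filter through the Cas and control arrays alone, and IFIT1 through these and ErbB2 replicate 2. Lower signal in ErbB2 cells was thus favoured by the filter, and the count is a description. IFIT2 was at least 1.27-fold lower (adjusted p = 0.028), a call lost without ErbB2 replicate 1 or 3, any single Cas array or control replicate 2 or 3 (largest adjusted p = 0.107). The ISG15 call held under every alternative in which it was tested, and that of IFIT1 was lost under each form of median scaling.

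Comparisons against control share the 3 control arrays that stood apart, so their counts are given side by side. In Cas/ErbB2 cells 3 of the 16 members detected on all 12 arrays rose (ISG20, and IRF7 and PLSCR1, whose signs turned under median scaling over all probes) and 6 fell (IFI6, SAMD9, EIF2AK2, UBE2L6, OAS3 and SP110), beside 21.7% and 19% of items so detected. In ErbB2 cells 2 rose (ISG20, whose call was lost under that scaling, and PLSCR1, which turned) and 1 fell (IFI6), beside 15.3% and 10.9%. In Cas cells 3 rose (ISG20, PLSCR1 and IFITM2, which all turned likewise) and 0 fell, beside 12.4% and 7.36%. Over the 16 members the median difference was -0.32 in Cas/ErbB2 cells, -0.11 in ErbB2 cells and 0.16 in Cas cells, where that of items so detected was 0.02 in each. Of the 21 members detected on 3 to 11 arrays 16 fell and 1 rose in Cas/ErbB2 cells, 10 fell and 0 rose in ErbB2 cells, and 4 fell and 2 rose in Cas cells. Over all items 24.5% fell and 21% rose in Cas/ErbB2 cells, 16.8% and 13.8% in ErbB2 cells, and 16% and 13.3% in Cas cells. All items include those detected on all 12 arrays, which fell less often. The share that fell was thus higher among items detected on 3 to 11 arrays, and the counts of the 21 are a description.

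Calls against control changed with the scaling. Median scaling over all probes put the median of all items at -1.61 in Cas/ErbB2 cells, -1.45 in ErbB2 cells and -1.67 in Cas cells, and then 36 of 37 members were called lower in Cas/ErbB2 cells, 35 in ErbB2 cells and 37 in Cas cells. Relative to that shift PLSCR1 stayed above the median item, by 0.79 in Cas/ErbB2, 0.73 in ErbB2 and 1.06 in Cas cells. ISG20 was above it by 2.45, 1.55 and 0.60 in the same groups. USP18, called lower in every group, was above it by 0.30, 0.44 and 0.57. Without a single control array the filter kept 33 members, and the calls fell to 16 or 17 in Cas/ErbB2 cells, 6 or 7 in ErbB2 cells and 3 or 4 in Cas cells, against 26, 13 and 9 with all arrays. In Cas/ErbB2 cells 13 of the 26 calls held under every alternative in which they were tested, in ErbB2 cells 4 of 13 (ISG15, IFIT1, IFIT2 and GBP2), and in Cas cells 0 of 9.

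The interaction term is the difference of Cas/ErbB2 from Cas cells minus that of ErbB2 from control cells. It asks whether the difference between groups with and without ErbB2 in their label changed with Cas in the label. The term holds the control arrays, so array run and control group cannot be told apart in it. Of the 16 members detected on all 12 arrays 1 was below 0 (IFITM2) and 0 above, beside 5.73% and 2.94% of items so detected. Of the 21 others 2 were below 0 (IFI27 and OAS1) and 1 above (IFIT5), where 5.21% of all items were below and 8.95% above. IFI27 had a term of -3.004 ± 0.41 (adjusted p = 0.000494), with a difference of -2.67 ± 0.29 of Cas/ErbB2 from Cas cells and of 0.34 ± 0.29 of ErbB2 from control cells. No term is read for ISG15, which was detected on 0 of the 6 Cas/ErbB2 and ErbB2 arrays. OAS1 had -1.17 ± 0.25 (adjusted p = 0.00783), while its other kept probes had 0.28 ± 0.27 (adjusted p = 0.536) and -0.52 ± 0.28 (adjusted p = 0.236). The terms of OAS1 and IFITM2 turned in sign under median scaling over all probes. Without Cas/ErbB2 replicate 3 the calls numbered 9, of which 8 were below 0, and without control replicate 2 there was 1, among 33 members kept.

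Other genes of the pathway were followed as lists. Of 9 interferon genes only IFNE, an epithelial interferon, was kept, on 3 arrays, and 6 were detected on 0 arrays. IFNE did not pass between Cas/ErbB2 and Cas cells (0.08 ± 0.19, adjusted p = 0.868). Of the receptor and JAK list 8 of 10 were tested, and in Cas/ErbB2 cells against Cas cells 2 fell, 1 rose and 5 did not pass. Of all items 5.7% fell and 4.95% rose. IFNGR1, the ligand-binding chain of the interferon gamma receptor, had 10.79, 11.06 and 11.10 in Cas/ErbB2 cells, 11.59, 11.49 and 11.86 in ErbB2 cells, 12.19, 12.28 and 12.26 in Cas cells, against 12.45, 12.56 and 12.49 in control cells. It fell, with a log2 difference of -1.26 ± 0.13 (adjusted p = 7.39e-05) against Cas cells and of -0.66 ± 0.13 (adjusted p = 0.0238) against ErbB2 cells, and the 4 groups did not overlap. IFNGR2, the other chain, rose by 0.58 ± 0.10 (adjusted p = 0.00282) against Cas cells. TYK2 fell, with a log2 difference of -1.02 ± 0.20 (adjusted p = 0.00469) against Cas cells and -0.89 ± 0.20 (adjusted p = 0.0334) against ErbB2 cells. IFNAR1, a chain of the type I receptor, did not pass (-0.20 ± 0.19, adjusted p = 0.593 against Cas cells).

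Of 5 tested negative regulators 1 fell in Cas/ErbB2 cells against Cas cells, the phosphatase gene PTPN6 (-0.92 ± 0.24, adjusted p = 0.0263), and 0 rose. Of 9 tested nucleic acid sensing genes 1 fell, TLR3 (-0.73 ± 0.20, adjusted p = 0.0394), and 8 did not pass. Of 16 tested interferon-stimulated genes outside the 42 members 1 rose, WARS1, a tRNA synthetase (0.91 ± 0.15, adjusted p = 0.0015), 1 fell, LGALS3BP, a secreted galectin ligand (-0.72 ± 0.18, adjusted p = 0.0232), and 14 did not pass. Their median difference was -0.01, where that of the 37 members was -0.60 and that of all items -0.02. In this comparison 5.7% of all items fell and 4.95% rose.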

How the data were processed

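Biotin-labelled total RNA of 12 samples was measured on Illumina bead arrays. The deposited non-normalized table gives, per the file headers, the mean bead signal (intensity) and a detection p-value of each of 47224 probes on each array. The authors' processed table holds intensities on the linear scale, with a median of 439.61 on each array. On each array its values ranked the probes as the raw signals did (Spearman correlation 1). It was used as an alternative. The array scanner software and the build are not given in the sources used here.

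Signals were background corrected with neqc (offset 16, background estimated from the detection p-values), made alike in distribution by quantile normalization and taken to log2 with limma 3.58.1 (R 4.3.3), from the deposited intensities. Gene symbols came from the platform table: 30111 probes had 1 symbol, 8 had several and 17105 none. Kept probes had a detection p-value under 0.05 on at least 3 arrays. Means of 4 groups were fitted over all 12 arrays with eBayes (8 residual degrees of freedom), and p-values were Benjamini-Hochberg adjusted over 16171 items in each of 7 comparisons. An exact permutation test of 3 against 3 arrays cannot give a p under 0.1 and was not used. The fit was also run on data simulated with independent normal noise around each item's mean, with some items changed in the Cas/ErbB2 group. These data held no shifted control arrays and no correlation by replicate number, so the run says nothing about either. A fold called "at least" sets the bright group's mean against the higher, per dim array, of its lowest signal well above background and the probe's own. Values of second probes come from a fit over all kept probes.

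The members, the lists and the promoter motifs were chosen with earlier results of these data known. Members detected on all 12 arrays and called at least once were to be given array by array for up to 14 by largest difference, and those on 3 to 11 arrays for up to 8. The main fit did not pair arrays by replicate number, and the check of such pairing, given in the last paragraph, left a hint of it. Alternatives covered background correction, scaling, the filter, the probe for a gene, the arrays in the fit, blocks and leaving out each array. Figures used matplotlib 3.10.9 (Python 3.11.15).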

Additional observations from a re-analysis of the deposited data

Results flagged for a closer look

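For 4 members the difference of Cas/ErbB2 from Cas cells was not that of ErbB2 from control cells, by limma's interaction term. The term holds the control arrays, so array run and control group cannot be told apart in it. IFI27 had a term of -3.004, which passed on leaving out each array and under every other alternative in which it was tested. OAS1 had -1.17, lost without control replicate 2 (adjusted p = 0.0556) and with the mean of the kept probes (-0.47, adjusted p = 0.0964), and its sign turned under median scaling over all probes (0.58, adjusted p = 0.132). The other kept OAS1 probes had 0.28 (adjusted p = 0.536) and -0.52 (adjusted p = 0.236). IFITM2 had -0.63, lost on leaving out 8 of the 12 arrays (largest adjusted p = 0.111). IFIT5 had 1.31, and its probe was detected on the control arrays alone, so that the difference of Cas/ErbB2 from Cas cells is one between groups not well above background.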

How the results depend on the processing

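Of the 78 member calls in the 7 comparisons, 25 held under every alternative in which they were tested, 53 were lost under at least 1, and 16 turned in sign under at least 1. The main counts of called members were 26 for Cas/ErbB2, 13 for ErbB2 and 9 for Cas against control, 18 for Cas/ErbB2 against Cas, 4 against ErbB2, 4 for ErbB2 against Cas and 4 for the interaction. The plan did not name the probes over which median scaling takes its median: all probes were run first, and the kept probes and those detected on all 12 arrays were added after those results were seen. With all probes the counts were 35 for ErbB2 and 37 for Cas against control, 1 for Cas/ErbB2 against ErbB2, 7 against Cas, 1 for ErbB2 against Cas and 32 for the interaction. With kept probes they were 2 for Cas/ErbB2 against ErbB2 and 8 for the interaction. With probes detected on all 12 arrays they were 9 for Cas/ErbB2 against Cas and 7 for the interaction. The share of all calls against control that were lower was 53.9% in Cas/ErbB2, 54.9% in ErbB2 and 54.6% in Cas cells, and became 92.9%, 93.7% and 93.6% with all probes, 30.8%, 23.4% and 22.3% with kept probes, and 27.9%, 26.5% and 23.2% with probes detected on all 12, the median of all items lying at 0.21, 0.26 and 0.20 with kept probes and 0.28, 0.22 and 0.20 with the last. The cause was not tested.

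Signs turned under median scaling over all probes for PLSCR1 (-0.83 in Cas/ErbB2, -0.72 in ErbB2 and -0.60 in Cas cells against control), for IRF7 (-0.84) and IFIT3 (-0.46) in Cas/ErbB2 cells, for OAS1 (-1.04), IFITM2 (-1.37), ISG20 (-1.06) and IFI27 (-0.71) in Cas cells, and for the interaction of OAS1 (0.58) and IFITM2 (0.81). With kept probes they turned for USP18 (0.51 in Cas/ErbB2, 0.70 in ErbB2 and 0.78 in Cas cells) and OAS2 (0.50 in Cas cells). With probes detected on all 12 they turned for USP18 (0.58, 0.66 and 0.78 in the same groups), OAS2 (0.49 in Cas cells) and IFIT5 (0.060 in Cas/ErbB2 cells). With the mean of the kept probes they turned for OAS1 in Cas cells (-0.061) and for IRF7 (-0.26) and IFIT3 (-0.57) in Cas/ErbB2 cells.

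With items detected on all 12 arrays alone, 16 members are tested, and the counts were 10 for Cas/ErbB2, 4 for ErbB2 and 3 for Cas against control, 6 for Cas/ErbB2 against Cas, 1 for ErbB2 against Cas and 2 for the interaction. The mean of the kept probes gave 8 for the interaction. Hybridization number as a random block gave 7, with the 9 arrays without a number taken as 1 block and an estimated correlation of -0.093. Since the numbers lie in the control group alone, this block cannot tell array run from control group. The arrays of the comparison alone gave 0 for Cas/ErbB2 against ErbB2 (limma, 14 at an unadjusted p under 0.05) and 10 against Cas. On the 9 arrays without control, restricted to items detected on all 9 and added after seeing the data, the counts were 1 for Cas/ErbB2 against ErbB2, 6 against Cas and 2 for ErbB2 against Cas. Leaving out each array gave 16 to 27 for Cas/ErbB2, 6 to 15 for ErbB2 and 3 to 11 for Cas against control, 1 to 10 for Cas/ErbB2 against ErbB2, 12 to 20 against Cas, 2 to 6 for ErbB2 against Cas and 1 to 9 for the interaction. With the replicate block the counts were 25, 12 and 10 against control, 18 for Cas/ErbB2 against Cas, 4 against ErbB2, 4 for ErbB2 against Cas and 5 for the interaction, and the block ended 4 of the 78 member calls: IFI6 (adjusted p = 0.0615) and PLSCR1 (0.0608) in ErbB2 cells against control, and GBP1 in Cas/ErbB2 cells against control (0.0671) and against Cas cells (0.0559). Of 18 pairs of arrays with the same number 7 correlated above 0.1 (lowest r = -0.09), as did 0 of 36 pairs with unlike numbers, and 8 of 12 arrays correlated best with their own number, a hint from the data and not from the design.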
